A study of Mus musculus with 9 samples.

Results

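*Gad1*, *Gad2*, *Slc32a1* and *Slc6a5*, the genes by which a neuron makes GABA, packs GABA and glycine into vesicles and gathers glycine, were examined in the cholinergic nuclei of the adult mouse spinal cord. The 4 genes were chosen by name, and all 4 were found among the 21457 features of the deposited matrix. Their levels were followed over the 21 clusters of 16042 nuclei, and their detection beside *Chat*, which encodes the acetylcholine-making enzyme choline acetyltransferase, was followed nucleus by nucleus, with the 9 libraries as replicates.

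All mice were 8 weeks old and of the strain Chat-IRES-Cre::Sun1-sfGFP, with 1 copy of each allele (Chat-iCre:+/wt; SUN-SfGFP:+/wt), so that Cre expressed from the *Chat* gene left a permanent GFP tag on the nuclear envelope. There was no untagged or treated group. Cords were cut one by one into cervical, thoracic and lumbar/sacral tissue, tissue of the same region was then combined across mice, and GFP+/DRAQ5+ nuclei were sorted for droplet sequencing. The nuclei of a replicate came from a pool of 4 mice. Replicate 1 mixed the sexes (2 males, 2 females), replicate 2 held males only (4) and replicate 3 females only (4), so that the 3 libraries of a replicate came from the same mice, each sex was 1 pool, and sex and pool cannot be told apart. The tag also marks neurons that used *Chat* only in development, so a tagged nucleus need not contain *Chat* RNA when it is collected.

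GABA and glycine are the fast inhibitory transmitters of the spinal cord, and single terminals often release both. *Gad1* and *Gad2* encode the glutamate decarboxylases GAD67 and GAD65, which make GABA from glutamate. *Slc32a1* encodes VGAT, the vesicular carrier that loads GABA and glycine alike, and *Slc6a5* encodes GlyT2, the plasma membrane transporter that supplies glycinergic terminals with glycine. Spinal cholinergic neurons comprise skeletal motor neurons, visceral (preganglionic) motor neurons and interneurons, and the interneurons include the partition cells that send C boutons to motor neurons.

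The members share a setting in the genome only in part. In the GRCm38 annotation *Gad2* lies at chr2:22622205-22693874, *Gad1* at chr2:70553072-70602014 and *Slc32a1* at chr2:158610767-158615748, all on the plus strand, and *Slc6a5* lies at chr7:49910146-49963856 on the plus strand. Their promoter windows, 250 bases before to 50 bases after a RefSeq start on GRCm38.p6, are shown because the 4 genes rise together only in some clusters. In I8, *Slc6a5* and *Slc32a1* rise without the *Gad* genes, and in some motor neuron clusters *Gad2* rises without the others. Capitals mark matches, on either strand, to an Sp1 box spelled GGGCGG, an E-box spelled CAGCTG, the core promoter element TATAAA, a homeodomain core spelled TAATTA and the E-box of the Zeb factors, spelled CAGGTG.
Gad1, chr2:70561879-70562178, plus strand: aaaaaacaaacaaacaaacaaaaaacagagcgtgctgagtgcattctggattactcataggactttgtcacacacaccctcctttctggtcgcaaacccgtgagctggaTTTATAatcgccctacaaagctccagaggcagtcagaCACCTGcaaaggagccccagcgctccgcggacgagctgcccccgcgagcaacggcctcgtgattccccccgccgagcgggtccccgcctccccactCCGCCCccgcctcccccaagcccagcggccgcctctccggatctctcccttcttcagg
Gad2, chr2:22622077-22622376, plus strand: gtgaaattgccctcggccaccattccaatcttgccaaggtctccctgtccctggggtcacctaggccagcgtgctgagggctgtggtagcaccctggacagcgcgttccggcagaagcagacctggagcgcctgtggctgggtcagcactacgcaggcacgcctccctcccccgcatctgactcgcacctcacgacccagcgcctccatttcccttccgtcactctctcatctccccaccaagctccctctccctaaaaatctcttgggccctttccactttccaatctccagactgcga
Slc32a1, chr2:158610508-158610807, plus strand: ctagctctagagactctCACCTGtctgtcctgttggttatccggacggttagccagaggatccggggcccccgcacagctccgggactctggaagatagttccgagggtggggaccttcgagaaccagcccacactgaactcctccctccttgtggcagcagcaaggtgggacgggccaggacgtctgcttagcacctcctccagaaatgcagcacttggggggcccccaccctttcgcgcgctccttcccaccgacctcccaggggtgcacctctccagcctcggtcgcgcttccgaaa
Slc6a5, chr7:49910049-49910348, plus strand: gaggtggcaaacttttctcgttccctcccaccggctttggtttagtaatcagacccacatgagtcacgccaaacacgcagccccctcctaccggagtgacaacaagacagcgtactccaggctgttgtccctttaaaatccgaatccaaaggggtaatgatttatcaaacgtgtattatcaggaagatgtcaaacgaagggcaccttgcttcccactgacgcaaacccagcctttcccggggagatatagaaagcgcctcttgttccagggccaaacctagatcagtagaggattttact
The *Gad1* window held 1 match to GGGCGG, 1 to TATAAA and 1 to CAGGTG, and the *Slc32a1* window held 1 match to CAGGTG. No match lay in the *Gad2* window or in either of the 2 windows listed for *Slc6a5*, which says only that these letters are not in those windows. Of all 32851 promoter windows of this length, 35.7% held GGGCGG, 20.2% CAGGTG, 16.3% CAGCTG, 13.6% TATAAA and 5.29% TAATTA, so such matches are common. The *Gad1* window lies inside the annotated span of the gene, at a start downstream of its first base. GC content was 60% in the *Gad1* window, 61.3% in that of *Gad2*, 63.3% in that of *Slc32a1* and 49.7% in the window shown for *Slc6a5*, against a median of 52.7% over all windows.

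The deposited values are read here as corrected counts, which a model adjusts for depth. For each library, they were added up by class or cluster wherever 10 or more nuclei were present, and each sum was brought to a total of 1000000, which gives CPM. The libraries held 747 to 2825 cholinergic nuclei, with medians of 4712 to 7175 corrected counts per nucleus in lumbar/sacral libraries and 7087 to 16127 in the others. The library labelled cervical replicate 2 had levels of the position genes *Hoxc5* (73.3 CPM) and *Hoxa9* (9.68 CPM) like those of thoracic replicates 1 and 3 (84.2 to 85.3 and 9.04 to 9.35 CPM). The library labelled thoracic replicate 2 (13.9 and 0.507 CPM) resembled cervical replicates 1 and 3 (22.5 to 25.4 and 0.213 to 0.412 CPM). Regional results are therefore also given without these 2 libraries. Across libraries, 33 cell barcodes occurred in more than 1 library and covered 66 nuclei, 20 of them interneurons. Doublets called on the corrected counts made up 1.02% of nuclei, and summed astrocyte markers stayed between 0.855 and 7.17 CPM in every class and library, summed endothelial markers between 1.61 and 6.33 CPM, summed oligodendrocyte markers between 34.9 and 90.6 CPM and summed microglia markers between 4.52 and 118 CPM.

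The members marked 6 of the 8 interneuron clusters and were low in the rest of the cholinergic nuclei, apart from *Gad2* in some motor neurons. Over all interneurons, *Gad1* reached 64.6 ± 6.92 CPM (SD, n = 9 libraries), *Gad2* 118 ± 16.3 CPM, *Slc32a1* 31.6 ± 15.3 CPM and *Slc6a5* 101 ± 27.3 CPM. In skeletal motor neurons the same genes were at 7.60 ± 2.03, 12.1 ± 4.45, 3.14 ± 1.02 and 5.67 ± 2.35 CPM, and in visceral motor neurons at 5.17 ± 1.02, 30.6 ± 13.7, 3.62 ± 2.02 and 4.18 ± 2.13 CPM. A fit of interneurons against both motor neuron classes with limma on log2(CPM + 5), with a term for the library, gave log2 differences of 2.62 ± 0.08 (SE) for *Gad1*, 2.37 ± 0.16 for *Gad2*, 2.02 ± 0.13 for *Slc32a1* and 3.40 ± 0.10 for *Slc6a5*. All 4 members passed the threshold of an adjusted p under 0.05 as higher, beside 20.2% of the 11292 genes tested (30.3% passed as lower), and since the classes were drawn by clustering these nuclei the fit describes the labels and is no independent test.

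**Figure D1:**
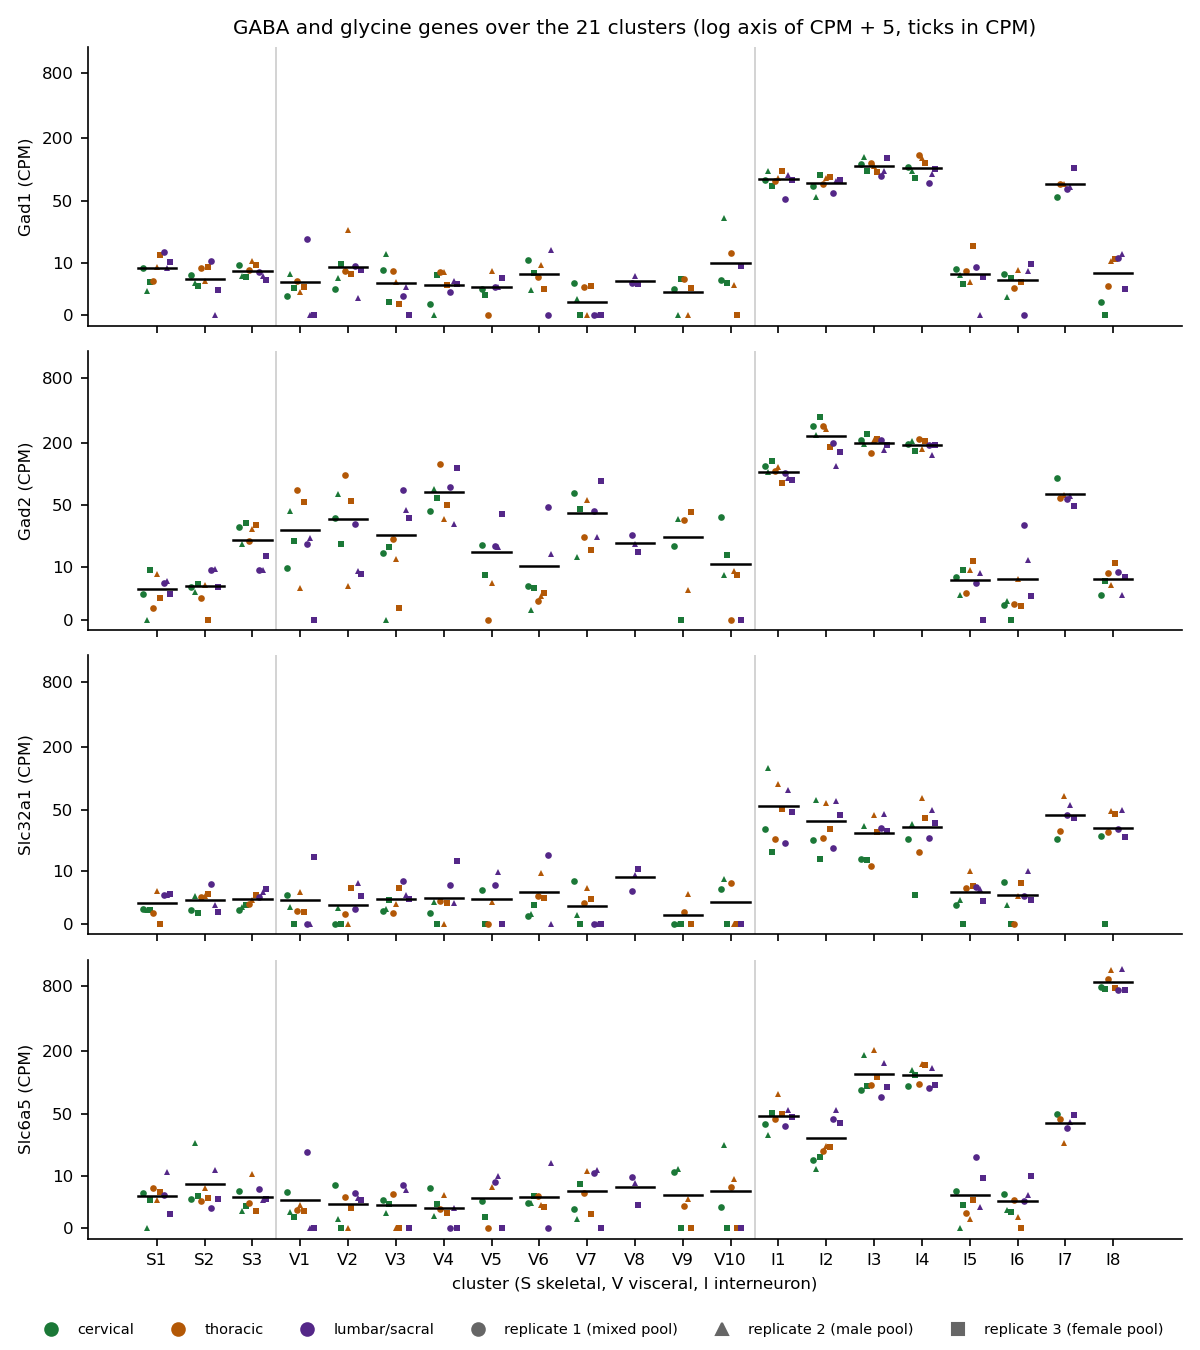
Summed level of each member in each of the 21 clusters (log axis of CPM + 5, ticks in CPM); points are libraries with at least 10 nuclei of the cluster, coloured by region and shaped by pool, and black lines are means. All 4 members are raised in I1 to I4 and I7, Slc6a5 reaches 736 to 1151 CPM in I8, and among motor neurons the means of Gad2 stand above those of the other members in S3 and in most V clusters.

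Several genes for uptake and breakdown of GABA and glycine were also higher in interneurons, while 2 of 3 tested acetylcholine genes were lower. Of the 12 genes of a list for uptake and turnover of GABA and glycine, 9 were tested, 6 passed as higher in interneurons and 0 as lower, with a median log2 difference of 0.22 against −0.04 over all genes. *Slc6a11*, which encodes GAT3, rose by 1.95 on the log2 scale, and *Abat*, which encodes the transaminase that breaks GABA down, rose by 0.84. *Abat* was nevertheless highest in I5 (222 ± 45.8 CPM) and I6 (170 ± 21.5 CPM), where the members were near background.

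Among the cholinergic genes, *Chat* fell by 0.34 and *Slc5a7*, the choline transporter, fell by 0.83 on the log2 scale in interneurons, whereas *Ache*, the esterase that clears acetylcholine, rose by 0.21. Of the inhibitory transcription factors listed, 4 of 10 were tested, and *Pax2*, *Pax8* and *Lhx5* passed as higher, by 4.48, 4.13 and 1.94 on the log2 scale, while *Sall3* passed as lower. Of the inhibitory postsynapse genes, 7 of 8 were tested, 5 passed as higher and 1, the glycine receptor subunit *Glrb*, as lower. The glycine receptor subunits *Glra3*, *Glra2* and *Glra1* rose by 2.09, 1.08 and 0.53.

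The clusters below were drawn by the authors from these nuclei with these genes among others, and each order of shares was set by the same values, so the tests of neighbours show only how clearly the steps stand out from the spread between libraries. *Gad1* separated the interneurons into 2 kinds. It was at 110 ± 16.3 CPM in I3, 106 ± 21.03 CPM in I4, 81.6 ± 14.2 CPM in I1, 75.7 ± 11.7 CPM in I2 and 74.2 ± 17.0 CPM in I7 (n = 6). The other interneuron clusters were at the level of motor neurons, with 7.05 ± 5.20 CPM in I8 (n = 8), 7.03 ± 4.34 CPM in I5 and 5.52 ± 3.05 CPM in I6. The lowest library of I1, I2, I3, I4 or I7 (51.9 CPM, lumbar/sacral replicate 1 in I1) was above the highest library of I5, I6 or I8 (16.3 CPM). The share of all genes with such a gap was not counted, so the gap is given as a description only. Counted as nuclei with 1 or more corrected counts, *Gad1* was found in 55.5% of nuclei in I4, 51.5% in I3, 45.5% in I1, 44.6% in I2 and 40.4% in I7 (means over libraries), against 5.27% in skeletal motor neurons, the background used here, at median totals of 6986 corrected counts in interneurons and 7393 in skeletal motor neurons. None of the 7 neighbours in this order differed when signs were flipped over libraries (two-sided exact test, adjusted over 28 comparisons), including I7 over I5, which was higher in 6 of 6 libraries by 36.0 points but had too few libraries to go below an unadjusted p of 0.0312 (adjusted p = 0.109).

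*Gad2* marked the same 5 clusters in another order. It was highest in I2 at 232 ± 71.2 CPM, followed by I3 at 201 ± 24.6, I4 at 189 ± 21.1, I1 at 106 ± 16.7 and I7 at 64.1 ± 14.9 CPM. I5, I6 and I8 were at 6.53 to 6.82 CPM, below the skeletal mean of 12.1 CPM. That mean is raised by S3 at 21.7 CPM, and S1 and S2 were at 4.50 and 5.12 CPM. Its share was 74.8% in I2, 72.4% in I4, 69.9% in I3, 51.5% in I1 and 34.8% in I7. The step from I3 to I1, 18.4 points, was the only called one among the 7 neighbours (higher in 8 of 9 libraries, exact sign-flip test, adjusted p = 0.0437).

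*Slc32a1*, the carrier needed to load either transmitter, was low throughout and was spread over 6 clusters. Its mean was 54.0 ± 36.7 CPM in I1, 43.9 ± 16.2 in I7, 37.9 ± 18.8 in I2, 33.3 ± 18.0 in I4, 32.1 ± 16.3 in I8 and 28.4 ± 12.5 CPM in I3. In I5 and I6 it was at 4.66 ± 2.89 and 4.14 ± 3.32 CPM, and the motor neuron classes were at 3.14 and 3.62 CPM. The SD between libraries was large, and the values by pool are given further on. Of 7 steps in its order of shares, which ran from 31.1% in I1 to 3.06% in I6, the only called one was from I3 to I5, 13.9 points and higher in 9 of 9 libraries (adjusted p = 0.0365).

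*Slc6a5* gave the widest spread of the members. I8 stood at 874 ± 174 CPM (n = 8), with 776 CPM in cervical replicate 1, 759 in cervical replicate 3, 936, 1120 and 771 in thoracic replicates 1 to 3 and 742, 1151 and 736 CPM in lumbar/sacral replicates 1 to 3. Every one of these libraries was above the highest library of any other cluster, 207 CPM for thoracic replicate 2 in I3. How many of all genes set I8 apart in this way was not counted. I3 and I4 were at 122 ± 48.3 and 119 ± 24.9 CPM, I1 at 48.0 ± 13.8, I7 at 40.7 ± 9.47, I2 at 27.9 ± 15.0, and I5 and I6 at 5.03 ± 5.38 and 3.73 ± 2.87 CPM. It was found in 98.9% of I8 nuclei, 58.5% of I4, 53.7% of I3, 28.6% of I1, 22.7% of I7 and 14.9% of I2 nuclei, against 4.34% of skeletal nuclei. Called steps were I8 over I4 by 44.6 points (8 of 8 libraries, adjusted p = 0.0437), I3 over I1 by 25.2 points (9 of 9, adjusted p = 0.0365) and I2 over I5 by 11.8 points (9 of 9, adjusted p = 0.0365), all by the exact sign-flip test. I4 against I3, I1 against I7 and I7 against I2 were not separated.

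Over the 4 members, 21 of 84 pairs of member and cluster had a mean share of at least 20%, and 20 of these lay in interneuron clusters. The remaining one was *Gad2* in V4. Since shares rise with depth, each nucleus was cut by random draws to 4600 corrected counts. This dropped 8.63% of nuclei as too shallow, all of them lumbar/sacral. Thinned shares were lower and kept the contrast, with *Gad1* at 27.3 to 39.5% in I1 to I4 and I7 and 3.07% in skeletal motor neurons, *Gad2* at 27.8 to 63.8% and 3.98%, and *Slc6a5* at 97.1% in I8, 42.8% in I4, 40.4% in I3 and 2.22% in skeletal motor neurons.

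Ratios between members also differed between clusters. A ratio of 2 genes depends on how well each is captured, so only its change from cluster to cluster is described. Summed corrected counts of *Gad2* were 1.91 times those of *Gad1* over I1 to I4, with 1.39 to 2.54 in single libraries, and the ratio was 3.09 in I2 and 1.36 in I1. *Slc6a5* to *Slc32a1* was 1.78 over I1 to I4 and 27.3 in I8, where the 4 libraries with enough counts gave 23.1 to 29.4. Within I1 to I4 it ran from 0.730 in I2 to 4.20 in I3.

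Counting genes within single nuclei divided the interneurons by transmitter genes. Pooled over libraries, 45.7% of I1 nuclei and 67.3% of I2 nuclei held *Gad1* or *Gad2* without *Slc6a5*, and 18.2% and 11.9% held both. In I3 and I4 both kinds were found together in 38.0% and 42.0% of nuclei and *Gad1* or *Gad2* without *Slc6a5* in 41.1% and 37.5%. I8 was of the opposite kind, with *Slc6a5* and neither *Gad* gene in 91.2% of 329 nuclei and both in 7.29%. I5 and I6 held none of *Gad1*, *Gad2* and *Slc6a5* in 87.2% and 89.9% of nuclei, similar to the 86.6% of skeletal motor neurons. At least 1 of the 4 members was found in 69.6% of the 5375 interneurons and in 35.4% of all cholinergic nuclei, but in 15.0% of skeletal motor neurons too, which bounds how far detection in 1 nucleus can be read.

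**Figure D2:**
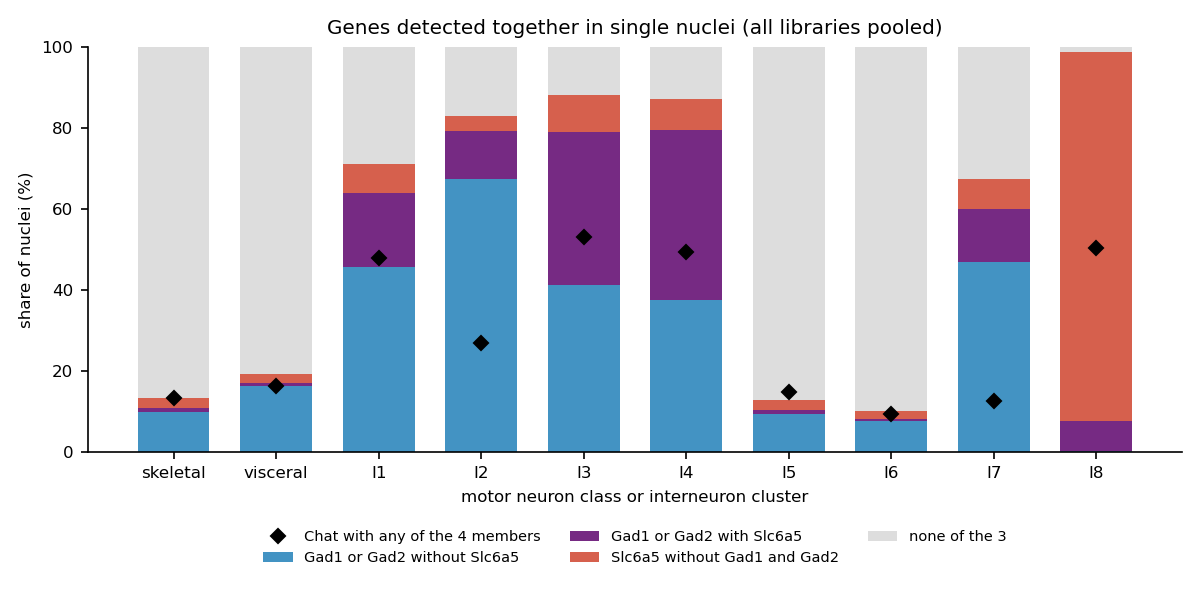
Share of nuclei (%, all libraries pooled) in which Gad1 or Gad2 and Slc6a5 were found apart, together or not at all, for the motor neuron classes and the 8 interneuron clusters; diamonds give the share with Chat and any of the 4 members. Both kinds are found together most often in I3 (38.0%) and I4 (42.0%), Slc6a5 without Gad genes fills I8 (91.2%), and I5 and I6 look like motor neurons.

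Other transmitter genes placed I6 and I8 apart from these. *Slc17a6*, the vesicular glutamate transporter VGLUT2, was at 46.0 ± 15.2 CPM in I6, in 27.1% of its nuclei, and below 10 CPM in every other interneuron cluster. *Slc17a8*, the transporter VGLUT3, was at 24.0 ± 24.4 CPM in I8, from 0 to 61.7 CPM over its 8 libraries, and at most 2.39 CPM in the other interneuron clusters. I8 also lacked the factors that the other member-positive clusters carried, with *Pax2* at 9.55 ± 7.79 CPM against 186 to 380 CPM in I1 to I4 and I7, and *Pax8* at 1.78 ± 3.99 CPM against 77.7 to 204 CPM. *Slc5a7* was at 10.0 ± 4.47 CPM in I8 and 17.8 ± 17.2 CPM in I7, against 361 ± 42.5 CPM in skeletal motor neurons.

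Member genes and *Chat* were found in the same nuclei, and this was commonest in I1, I3, I4 and I8. *Chat* itself was at 194 ± 26.9 CPM in I1, 172 ± 21.2 in I3, 144 ± 23.1 in I4, 97.9 ± 37.2 in I8, 53.0 ± 16.6 in I2 and 31.2 ± 30.9 CPM in I7. The 2 clusters without the members, I5 and I6, had the most, 377 ± 63.8 and 294 ± 76.8 CPM. *Chat* together with at least 1 member was found in 53.0% of I3 nuclei, 50.5% of I8, 49.4% of I4, 47.8% of I1, 26.8% of I2 and 12.5% of I7 nuclei, all libraries pooled. As means over libraries these shares were 60.2% in I3, 59.1% in I4, 57.0% in I1, 49.5% in I8, 28.9% in I2 and 11.3% in I7, so that the order of I1, I4 and I8 depends on how libraries are weighted. In skeletal and visceral motor neurons the same count gave 13.3% and 16.3% pooled, and 15.4% and 16.1% as means. *Gad1*, *Slc32a1* and *Slc6a5* are near background there, but *Gad2* is raised in S3 and in some visceral clusters. *Chat* with a *Gad* gene was found in 9.54% of skeletal and 13.2% of visceral nuclei, pooled. Also pooled, *Chat*, a *Gad* gene and *Slc32a1* were seen in the same nucleus in 11.9% of I1, 10.8% of I4, 9.39% of I3 and 6.03% of I2 nuclei, against 0.336% of skeletal nuclei. *Chat*, *Slc6a5* and *Slc32a1* were seen together in 11.2% of I8 nuclei and 7.69% of I4 nuclei, against 0.198% of skeletal nuclei.

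Within a cluster, no member was called as different between nuclei with and without a corrected count of *Chat*. A nucleus can lack such a count through sampling alone, since *Chat* was at 194 CPM in I1 at a median total of 6235 corrected counts. The comparison can therefore miss a difference between nuclei that do and do not express *Chat*. The average below also takes in I5 and I6, where the members were near background. Averaged over I1 to I6 within each library, the difference in log2(CPM + 5) between nuclei with and without a corrected count of *Chat* was 0.17 for *Gad1* (95% interval −0.01 to 0.36), 0.06 for *Gad2* (−0.12 to 0.24), −0.17 for *Slc32a1* (−0.50 to 0.16) and −0.05 for *Slc6a5* (−0.40 to 0.30). With limma, 0 of the 4 members passed an adjusted p of 0.05 (0.699, 0.900, 0.845 and 0.962), beside 0.0676% of 13318 genes, and 0 passed an unadjusted p under 0.05 either. In I2 alone, where *Chat* is low, the differences were −0.04, −0.02, −0.32 and 0.19, with 0 members called beside 0.0368% of genes and intervals that reached from −0.76 to 0.69 across the members.

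**Figure D3:**
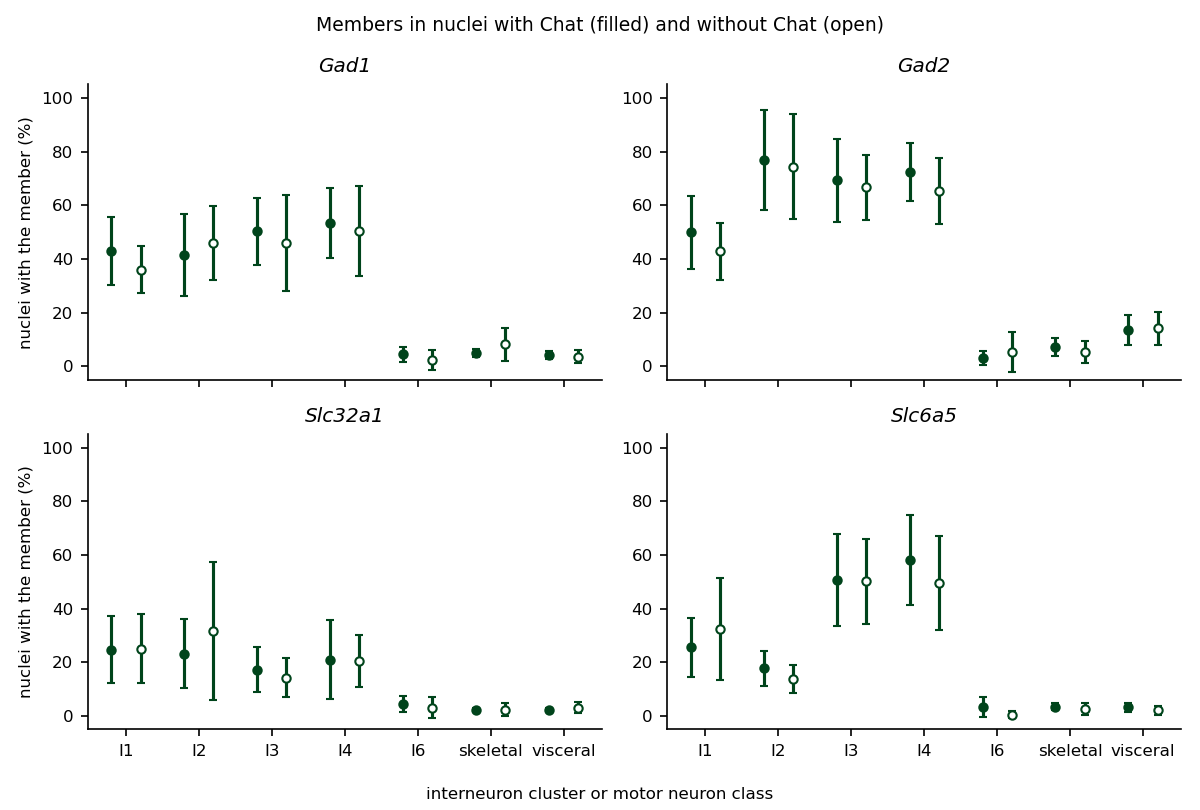
Share of nuclei (%) with each member among nuclei with Chat (filled) and without Chat (open), as mean ± SD of libraries that had 10 or more nuclei of either kind; I5 is left out because only 2 libraries qualified. The filled and open points lie within each other's error bars in I1 to I4 for every member.

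The same held for shares of nuclei. Of 32 comparisons of member and cluster or class, 0 passed the exact sign-flip test after adjustment and 3 had an unadjusted p under 0.05. In I1, *Gad1* was found in 43.1% of *Chat*-positive and 36.1% of *Chat*-negative nuclei, 7.02 ± 6.43 points apart and higher in 7 of 8 libraries (adjusted p = 0.417, exact). *Gad2* differed by 7.20 ± 6.95 points in I1, higher in 7 of 8 libraries, and by 7.24 ± 9.64 points in I4, higher in 6 of 8 (exact adjusted p = 0.417 for both). *Slc32a1* and *Slc6a5* differed by −8.47 to 8.34 points over I1 to I4, with SDs of 3.16 to 22.8 points. Depth differs between nuclei of 1 library, and its part in these differences was not tested beyond thinning.

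No pair of members was called as tied to each other within clusters. Counts per nucleus were low, with *Slc32a1* at 28.4 to 54.0 CPM in I1 to I4 at median totals of 6037 to 7050 corrected counts. A tie between members can therefore be missed. Averaged over I1 to I4, *Gad2* was found in 70.0 ± 14.2% of nuclei with *Gad1* and in 65.2 ± 14.5% of those without, a difference of 4.87 points that was positive in 7 of 9 libraries. *Slc32a1* was 3.97 points more frequent with *Gad1* than without (7 of 9 libraries), and *Slc6a5* was 2.40 points less frequent with *Slc32a1* than without (lower in 7 of 9 libraries). Of the 6 pairs, 0 passed the exact sign-flip test after adjustment and 2 had an unadjusted p under 0.05, those of *Gad1* with *Gad2* and with *Slc32a1* (adjusted p = 0.129 for both).

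*Gad2* was the member that motor neurons carried. Among skeletal clusters it was at 21.7 ± 9.49 CPM in S3, which the study labels gamma motor neurons, the fusimotor kind that innervates muscle spindles, and at 4.50 ± 3.04 CPM in S1 and 5.12 ± 2.94 CPM in S2. Its share was 12.6% in S3, 2.81% in S1 and 3.50% in S2. Among visceral clusters it was highest in V4 at 67.8 ± 33.0 CPM, in 26.1% of nuclei, followed by V7 at 41.9 ± 25.2, V2 at 36.6 ± 31.6, V1 at 27.5 ± 24.0, V3 at 24.7 ± 22.8 and V9 at 23.0 ± 18.2 CPM (n = 6). V6, V10, V5 and V8 were at 10.4 to 19.7 CPM with SDs of 4.39 to 15.98 CPM, and in V6 the median over libraries was 4.19 CPM.

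The other members did not follow it. *Gad1* was at 4.47 ± 2.59 CPM in V4, *Slc32a1* at 3.63 ± 4.23 and *Slc6a5* at 2.57 ± 2.15 CPM, all near the means of the visceral class. *Gad2* to *Gad1* was 16.2 by summed corrected counts in V4, 9.13 in V7, 8.33 in V1, 7.91 in V2 and 2.83 in S3, against 0.731 over S1 and S2 and 1.91 over I1 to I4. Visceral against skeletal motor neurons, a comparison added after the values were seen, gave log2 differences of 1.01 ± 0.19 for *Gad2*, −0.30 ± 0.09 for *Gad1*, 0.06 ± 0.15 for *Slc32a1* and −0.22 ± 0.12 for *Slc6a5*. *Gad2* passed as higher, beside 36.7% of all genes, and *Gad1* as lower, beside 30.1%, so the count of 2 members is not more than the background, and again the classes were drawn from these nuclei. The call of *Gad1* was lost without replicate 3, and *Slc6a5* was called as lower only with a pseudocount of 1.

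Other genes were compared between motor neurons with and without a corrected count of *Gad2*. Among the 773 visceral nuclei with *Gad2*, *Slc32a1* was found in 2.98% against 2.36% of the 4840 without, *Slc6a5* in 3.88% against 2.73%, the visceral markers *Zeb2* in 75.0% against 69.3% and *Fbn2* in 91.1% against 81.8%, and *Chat* in 77.7% against 73.7%. Doublet calls made up 1.03% and 0.992%, and median totals were 8698 and 7474 corrected counts. These values pool all visceral clusters and libraries, so cluster makeup and *Gad2* state cannot be told apart in them, and they were not tested. Within V7, *Zeb2* was found in 33.3% against 21.9%, *Fbn2* in 98.6% against 91.2% and *Chat* in 55.1% against 59.2%. Within V4 the same genes gave 75.7% against 74.8%, 88.4% against 86.3% and 82.7% against 84.5%. In V4, 0 of 173 *Gad2*-positive nuclei were called doublets, a count that allows a share of up to 1.73%. In V4, *Pax2* was found in 4.62% of *Gad2*-positive against 1.23% of the other nuclei, *Gad1* in 6.94% against 2.66% and *Slc32a1* in 4.05% against 2.04%, and in all visceral nuclei *Gad1* was found in 5.69% against 3.64%. In S3, 4.51% of the 244 *Gad2*-positive nuclei and 1.10% of the others were called doublets, *Pax2* was found in 7.38% against 2.80%, and *Gad1* in 11.1% against 4.31%. The part of doublets in the S3 level was not tested beyond leaving them out, after which the regional difference below was as large.

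Levels of *Gad2* in visceral clusters varied with the library. In V2 it was at 37.1, 64.4 and 19.2 CPM in cervical replicates 1 to 3, 99.7, 5.02 and 55.0 CPM in thoracic replicates 1 to 3 and 32.2, 8.91 and 8.00 CPM in the lumbar/sacral ones. In V7 the same libraries gave 66.7, 13.4 and 45.7 CPM, 23.1, 57.0 and 16.7 CPM, and 43.7, 23.5 and 87.4 CPM. Cervical and thoracic labels overlapped in both clusters. The 3 libraries with high *Hoxa9* (cervical replicate 2, thoracic replicates 1 and 3) lay above the other 3 of these labels in V2 and below them in V7. Of the other visceral clusters with all of these libraries, V1 and V9 split as V2 did and V10 as V7 did. In V3, V4 and V6 the libraries overlapped. The share of all genes that split in this way was not counted, so the split is given as a description only.

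Along the cord, no member differed in the interneurons as a whole. Lumbar/sacral against the other libraries gave log2 differences of 0.04 ± 0.12 for *Gad1*, −0.15 ± 0.12 for *Gad2*, 0.36 ± 0.42 for *Slc32a1* and 0.34 ± 0.23 for *Slc6a5*, with 0 of 4 members called (limma, adjusted p = 1.0 for each, and 0 at an unadjusted p under 0.05) beside 0.051% of genes. Cervical against thoracic gave −0.12, 0.21, −0.38 and −0.18, with 0 members and 0% of 9805 genes called (189 genes, 0 of them members, at an unadjusted p under 0.05). A term for the mouse pool raised the number of genes called in the lumbar/sacral comparison from 5 to 44 and still called 0 members. Without cervical and thoracic replicate 2 the numbers were 13 genes and 0 members, and the cervical against thoracic comparison, with 0 genes called, gave −0.24 for *Gad1*, 0.22 for *Gad2*, −0.54 for *Slc32a1* and, with its sign turned, 0.18 for *Slc6a5*.

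Inside I2, *Slc6a5* was higher in lumbar/sacral tissue. I2 was the one with the least *Slc6a5* of the 6 clusters that carry it, at 15.9, 12.3 and 17.3 CPM in cervical replicates 1 to 3, 20.3, 22.8 and 22.1 CPM in thoracic replicates 1 to 3 and 44.8, 55.0 and 40.5 CPM in lumbar/sacral replicates 1 to 3. The 3 lumbar/sacral libraries lay above all others, as they did for 1.74% of the genes tested in I2. The log2 difference was 1.15 ± 0.21 (limma, adjusted p = 0.0332), where 0.511% of 9589 genes were called and 0.334% as higher. In the same fit *Slc5a7*, the choline transporter, was higher by 1.51 ± 0.24 (adjusted p = 0.0173), the interneuron marker Mpped2 passed as lower at −0.90 ± 0.17 (adjusted p = 0.0400) and the marker *Pax2* differed by 0.13 ± 0.17 (adjusted p = 1.0), and their part in the result was not tested. *Slc6a5* in I2 was 1 of 24 tested pairs of member and cluster over 14 clusters that had at least 10 nuclei in every library, all fits added after the data were seen, and the only one called. Genes called made up 0.0408% in I4, 0.0286% in I5, 0.845% in I6, 0.0711% in S3, 3.07% in V2, 1.55% in V3, 2.74% in V4, 0.0783% in V7 and 0% in I1, I3, S1, S2 and V1.

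The call was not stable to the choice of libraries, although the size was. Leaving out single libraries or pools gave log2 differences of 1.002 to 1.28 with adjusted p of 0.0455 to 0.452, passing only without cervical replicate 2, and without both cervical and thoracic replicate 2 it was 1.11 (adjusted p = 0.0800). With the pool as a term the adjusted p was 0.0180, 134 genes in place of 49 were called in I2, and *Gad2* in V3 joined as a second called pair (24.7 ± 22.8 CPM over all libraries, log2 difference 1.97 ± 0.54 in lumbar/sacral tissue, adjusted p = 0.126 without the term). By share of nuclei, *Slc6a5* in I2 was found in 19.1 ± 4.28% of lumbar/sacral and 12.9 ± 2.89% of other nuclei (exact permutation test over 84 groupings, adjusted p = 0.107). Under 4 other settings this difference ran from 1.60 to 10.5 points (same test, adjusted p from 0.0476 to 0.673). The lumbar/sacral libraries had lower depth, and its part was not tested beyond thinning.

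**Figure D4:**
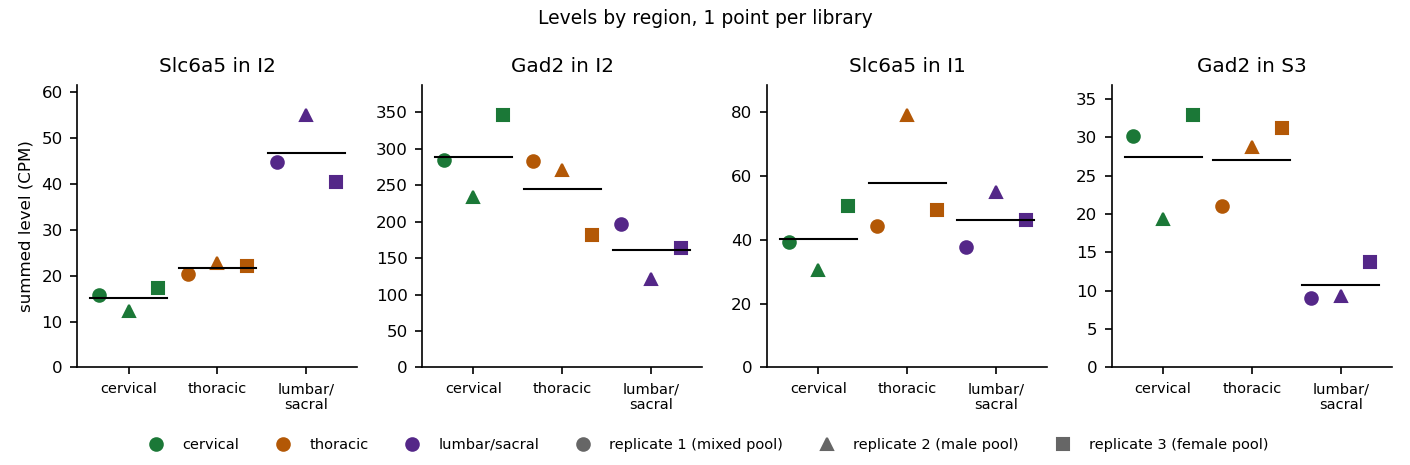
Summed level (CPM) of Slc6a5 and Gad2 in I2, Slc6a5 in I1 and Gad2 in S3 by region; points are single libraries coloured by region and shaped by pool, and lines are means of 3. Lumbar/sacral libraries are highest for Slc6a5 in I2 (40.5 to 55.0 CPM against 12.3 to 22.8) and lowest for Gad2 in S3 (9.06 to 13.8 CPM against 19.3 to 32.9), and overlap with the others in the remaining panels.

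The other interneuron clusters did not share this regional step. *Slc6a5* differed by −0.03 ± 0.22 in I1, −0.26 ± 0.31 in I3 and −0.19 ± 0.20 in I4 on the log2 scale, none of them called. The difference in I2 exceeded the mean of those in I1, I3 and I4 by 1.31 (exact permutation test over 84 groupings, unadjusted p = 0.0119, the smallest it can give, and adjusted p = 0.0476 over 4 members). *Gad2* moved the other way in I2, at 284, 234 and 347 CPM in cervical replicates 1 to 3, 284, 271 and 182 CPM in thoracic replicates 1 to 3 and 197, 122 and 164 CPM in the lumbar/sacral ones. Its libraries overlapped, its log2 difference was −0.71 ± 0.20 (limma, adjusted p = 0.218), and its difference from I1, I3 and I4 was −0.56 (exact permutation, adjusted p = 0.0476). For *Gad1* and *Slc32a1* that difference was 0.15 and −0.10 (exact adjusted p = 0.607 for both). I2 was singled out for this test after its values were seen, and the groupings left out the pairing of libraries by pool. The test was run for the 4 members only, so the share of all genes with such a difference is not known.

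In S3, *Gad2* was at 30.2, 19.3 and 32.9 CPM in cervical replicates 1 to 3, 21.1, 28.7 and 31.2 CPM in thoracic replicates 1 to 3 and 9.06, 9.25 and 13.8 CPM in lumbar/sacral replicates 1 to 3. The 2 groups of libraries did not overlap, which in S3 held for 0.63% of genes in this direction. The log2 difference was −1.03 ± 0.20 and did not pass (limma, adjusted p = 0.167). Without doublets it was −1.09, and without cervical and thoracic replicate 2 it was −1.11.

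Shares of member-positive nuclei were lower in lumbar/sacral libraries for most pairs of member and interneuron cluster, and so were their depths. Of 24 pairs in I1 to I6, 0 passed the exact permutation test after adjustment and 9 had an unadjusted p under 0.05. The largest was *Gad2* in I2, found in 52.7 ± 3.86% of lumbar/sacral and 85.8 ± 10.2% of other nuclei. Thinning to 4600 corrected counts per nucleus also dropped the shallower nuclei, 44.1% of all in lumbar/sacral replicate 1, 13.6% in replicate 3 and 0% in the other libraries. In the nuclei that were kept, the difference was −15.7 points in place of −33.1 (exact adjusted p = 0.500), and the part played by depth was not tested apart from this loss of nuclei.

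Between pools, *Slc32a1* was highest in the male pool. Over all interneurons it was at 47.4 (cervical), 49.7 (thoracic) and 52.5 CPM (lumbar/sacral) in replicate 2. The mixed pool gave 19.8, 17.3 and 23.6 CPM in this order of regions, and the female pool gave 10.2, 30.9 and 33.0 CPM. Replicate 2 was highest in each region, an order that 20% of genes tested in interneurons also showed. Male against female pool gave a log2 difference of 0.998 ± 0.28 (limma with a term for region, adjusted p = 0.329), with 0.0521% of 9594 genes and 0 members called. *Slc32a1* was the 1 member at an unadjusted p under 0.05, as were 1327 of the 9594 genes. Without the cervical libraries the difference fell to 0.60 and passed (limma, adjusted p = 0.0029). That of *Slc6a5* also passed, at 0.62 (adjusted p = 1.1e-04), but 1187 genes were then called in place of 5. Thoracic replicate 2, whose Hox levels go against its label too, stayed in that fit, so the problem of labels remains. Over 9 settings that left out libraries, the adjusted p of *Slc32a1* ran from 0.0019 to 0.969 (limma). Within I1 to I4, 2 of 16 pairs of member and cluster were called without the cervical libraries. Leaving out the thoracic or the lumbar/sacral libraries called 0. Without cervical and thoracic replicate 2 the male pool is left with its lumbar/sacral library, which gives the 52.5 against 33.0 CPM above and no test.

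The same order appeared inside single clusters. In I1, the male pool gave 126, 88.5 and 77.8 CPM of *Slc32a1* in the same order of regions, the mixed pool 31.4, 24.6 and 22.3 CPM and the female pool 17.4, 50.5 and 47.0 CPM. In I2 the male pool gave 61.7, 58.7 and 60.9 CPM, the mixed pool 23.8, 25.3 and 19.7 CPM and the female pool 14.6, 31.9 and 44.5 CPM. Over I1 to I4 and the 3 regions, replicate 2 was the highest of the 3 pools in 12 of 12 sets for *Slc32a1*, 10 of 12 for *Slc6a5*, 3 of 12 for *Gad1* and 2 of 12 for *Gad2*. These sets reuse the same libraries in each cluster, so they are not independent repeats. The share of all genes with such counts over the 12 sets was not counted. An order with replicate 2 highest in all 3 regions held for 16.5% of genes in I1, 10.9% in I2 and 12.6% in I3 and I4. In fits within these clusters, added after the values were seen, male exceeded female by 1.33 ± 0.38 in I1, 0.99 ± 0.30 in I2, 0.68 ± 0.28 in I3 and 1.04 ± 0.39 in I4 on the log2 scale for *Slc32a1*, and by 0.84 ± 0.17 for *Slc6a5* in I3. None passed (limma, adjusted p = 0.316 to 0.551), and 0.0439%, 0.0436%, 0.0777% and 0.0638% of genes were called in I1 to I4. These 5 of 16 pairs had an unadjusted p under 0.05. So did 1024 of 9118 genes tested in I1, 766 of 9177 in I2, 921 of 9012 in I3 and 820 of 9410 in I4.

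**Figure D5:**
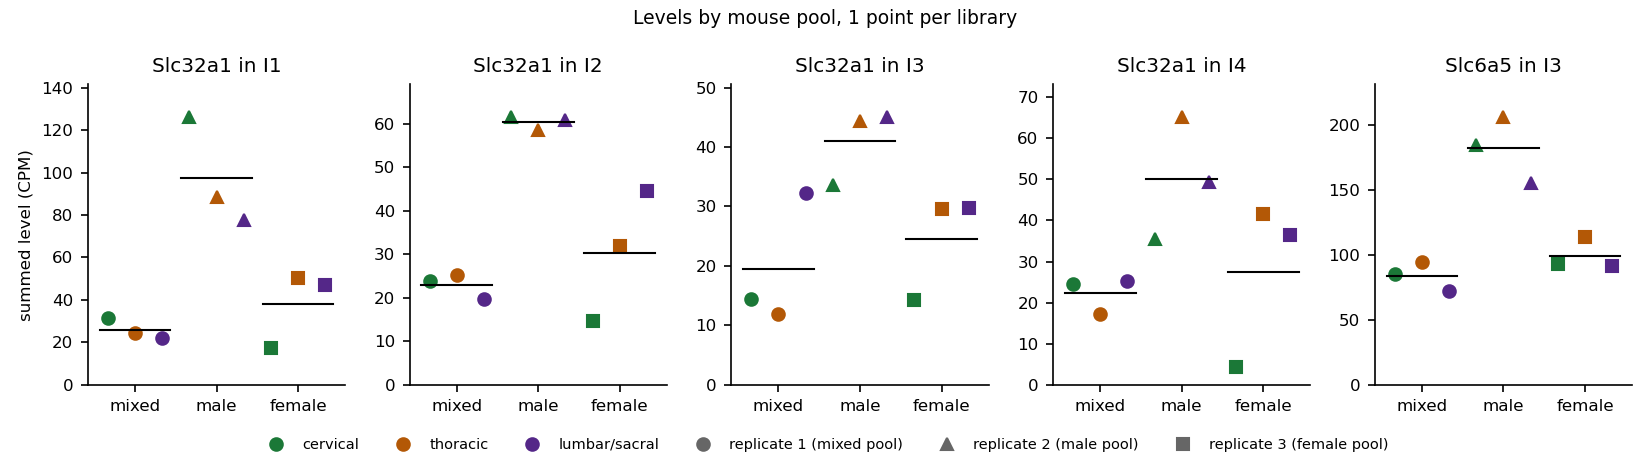
Summed level (CPM) of Slc32a1 in I1 to I4 and of Slc6a5 in I3 by mouse pool; points are single libraries coloured by region and lines are means of 3. The male pool (replicate 2) is highest in every region in each panel, with 77.8 to 126 CPM of Slc32a1 in I1 against 17.4 to 50.5 in the other pools; each sex is 1 pool, so sex and pool cannot be told apart.

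Over the 21 clusters, members resembled each other to different degrees. The Pearson correlation of mean log2(CPM + 5) across clusters was 0.871 between *Gad1* and *Slc32a1*, 0.816 between *Slc32a1* and *Slc6a5*, 0.774 between *Gad1* and *Gad2* and 0.362 between *Gad2* and *Slc6a5*, all from the same nuclei and libraries and given as a description. Among 10842 genes, the 5 with the pattern most like *Gad1* were *4930438E09Rik* (0.978), *Pax8* (0.974), *Ebf2* (0.973), *Neurod2* (0.973) and *C230057M02Rik* (0.972). Most like *Gad2* were *St8sia2* (0.856), *Gad1os* (0.842), *Gm6878* (0.840), *4930438E09Rik* (0.830) and *Oprm1*, the mu opioid receptor gene (0.829). Most like *Slc32a1* were *Nxph2* (0.952), *Hoxb8* (0.948), *Lamp5* (0.930), *Hoxb4* (0.923) and *Gm11536* (0.917), and most like *Slc6a5* were *Klhl14* (0.950), *4930426D05Rik* (0.945), *Nrep* (0.879), *Rgs3* (0.865) and *Lamp5* (0.863). Without I8, where *Slc6a5* peaks, *Klhl14* remained at 0.914 and *Nrep* at 0.790. *Gad1os* is antisense to *Gad1*, and no source used here says whether counting used the strand, so reads of the pair cannot be told apart.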

How the data were processed

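Nuclei of 9 libraries (3 regions, 3 pools of 4 mice) were profiled with droplet sequencing. Per the labels and the study's methods, the authors mapped the reads to mm10 (GRCm38) in Cell Ranger 3.1.0, normalized with SCTransform, clustered nuclei in Seurat and named DESeq2 among their tools. What the deposited matrix holds is not given in the sources used here. The whole-number values the authors deposited were read as SCTransform-corrected counts, since totals per nucleus are nearly constant within a library, and treated as a score. Clusters, classes and skeletal types are the labels the authors deposited for each nucleus. Columns of the authors' own comparisons were not used.

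Sums of at least 10 nuclei were scaled to CPM. Differences were tested by limma 3.58.1 (R 4.3.3, trended variance) as log2(CPM + 5), on genes that reached 10 CPM in 3 or more sums, and an adjusted p (Benjamini-Hochberg) under 0.05 was called. Class fits carried a term for the library, pool fits a term for the region, and region fits none. Shares used two-sided exact sign-flip tests over libraries (512 flips with 9 libraries, smallest p 0.00391) or exact permutation over 84 groupings (smallest p 0.0119). Confidence limits are at 95%, and the limit for a count of 0 is 3 nuclei over the total. Intervals and limits cover counting error or the spread between libraries only. Pool numbers pair the libraries, since the 3 libraries of a replicate come from the same mice. Deviations of same-numbered interneuron libraries correlated by 0.772 to 0.922 in pool 1, 0.488 to 0.749 in pool 2 and −0.191 to 0.855 in pool 3.

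Genes named were the members, *Chat*, listed genes and the 5 most similar genes per member, among genes with at least 10 CPM in 3 clusters. 1 listed gene is not reported here. The members and lists were chosen with earlier results of these data known. Scrublet in scanpy 1.11.5 called doublets on the corrected counts of each library, and they were kept except in the alternative without them. The analysis was tested on simulated data. Promoter windows came from RefSeq for GRCm38.p6, where all 4 symbols matched. Other work used Python 3.11.15, numpy 2.4.6, pandas 2.3.3 and scipy 1.17.1. Alternatives were other pseudocounts (1 and 20 CPM), filters, scaling by the median of ratios, thinning, other limits on detection or nuclei, and leaving out doublets, pools or libraries.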

Additional observations from a re-analysis of the deposited data

Results flagged for a closer look

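Outlying libraries were looked for in 48 groups of 4 to 10 libraries, of which chance flags about 1 in 20, and 6 were found. *Gad1* in I7 reached 106 CPM in lumbar/sacral replicate 3, against 55.6 to 74.3 CPM in the other 5 libraries. *Gad2* in I7 reached 92.6 CPM in cervical replicate 1, against 48.9 to 63.6 CPM. *Gad2* stood out upwards in 3 clusters where it is otherwise low, with 48.6 CPM in V6 and 31.1 CPM in I6, both in lumbar/sacral replicate 1, and 38.2 CPM in V10 in cervical replicate 1. Over all libraries *Gad2* summed to only 23 corrected counts in V6, 23 in I6 and 24 in V10, so these levels rest on few counts. *Slc6a5* in I1 reached 79.0 CPM in thoracic replicate 2, whose Hox levels go against its label, with the next library at 55.0 CPM.

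For 2 of 4 members, the difference between lumbar/sacral and other libraries was called as unlike in I2 and in I1, I3 and I4. The test left out the pairing of libraries by pool, so its p-values do not account for that pairing. By the exact permutation test over 84 groupings, the log2 difference in I2 minus the mean of the others was 1.31 for *Slc6a5* and −0.56 for *Gad2* (adjusted p = 0.0476 for both). For *Slc6a5* each of the 3 lumbar/sacral libraries lay between −0.89 and −0.45 and the other 6 between −2.49 and −1.66 on the scale of I2 minus the mean of I1, I3 and I4. I2 was chosen for this after its values were seen. The share of all genes with such a difference was not counted, so the count of 2 members is not read as a result about them.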

How the results depend on the processing

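The 4 members passed as higher in interneurons under every alternative that tested them, with log2 differences from 1.09 to 4.16. Scaling by the median of ratios moved the split of genes called there from 2286 higher and 3416 lower to 2918 and 2751, and in I2 by region from 32 and 17 to 30 and 7. In S3 it moved the median of all genes from 0.14 to −0.0039. The replicate block called 44 genes for interneurons by region, 134 in I2, 12 in S3 and 2 members within clusters, and changed no other call of a member. Without cervical and thoracic replicate 2 these counts were 13 for interneurons, 3 in S3 and 0 members within clusters, and *Slc6a5* between cervical and thoracic tissue turned to 0.18.

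Other counts that moved by over 1.5 times were those for interneurons by region (5 genes), with 2 at a pseudocount of 1, 2 with 10 corrected counts in every sum and 3 with the median of ratios. Between pools (5 genes) the last 2 settings gave 0 and 8. For *Chat* within clusters (9 genes), no filter gave 0, 10 corrected counts in every sum 28 and the median of ratios 16. For *Chat* in I2 (4 genes), pseudocounts of 1 and 20 gave 2 and 11, no filter 1 and 10 corrected counts 9. S3 by region (7 genes) gave 2 with a pseudocount of 1, 17 with no filter and 3 with the median of ratios. Members within clusters by region (1) gave 2 with a pseudocount of 20, 0 with no filter and 0 with 10 corrected counts in every sum, and members by pool (0) gave 1 with no filter. Of 84 pairs of member and cluster, 9 in place of 21 reached 20% at 2 corrected counts, and at 30 nuclei 3 shares by region passed in place of 0.

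Leaving out pools or libraries gave 0 to 9 genes for interneurons by region, 0 to 1331 between pools, 0 to 51 for *Chat* within clusters, 4 to 55 in I2 by region, 0 to 4 in S3 by region, 0 to 1 member within clusters by region, 0 to 2 by pool and 0 called neighbours (6 libraries cannot pass after adjustment). The lowest and highest log2 differences were −0.031 to 0.16 for *Gad1* in interneurons by region, −0.86 to 0.045 for *Slc32a1* and −0.45 to 0.18 for *Slc6a5* between cervical and thoracic, −0.076 to 0.062 for *Gad1* and −0.13 to 0.037 for *Gad2* between pools, −0.018 to 0.15 for *Gad2* and −0.23 to 0.093 for *Slc6a5* by *Chat* within clusters, −0.084 to 0.00065 for *Gad1*, −0.072 to 0.017 for *Gad2* and −0.054 to 0.51 for *Slc6a5* by *Chat* in I2, and −0.17 to 0.079 for *Gad1* and −0.12 to 0.62 for *Slc32a1* in I2 by region. *Slc6a5* given *Slc32a1* ran from −4.25 to 0.20 points.

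Signs also turned for the pool difference of *Gad1* (−0.10 with the median of ratios, −0.00015 without doublets), *Slc6a5* by *Chat* (0.014 at a pseudocount of 1), *Gad1* in I2 by region (0.0025 with the median of ratios), *Slc32a1* given *Gad2* (2.63 points, −0.12 at 2 corrected counts, −0.24 thinned), *Slc6a5* given *Gad2* (2.05 points, −1.04 thinned) and *Slc6a5* given *Slc32a1* (−2.40 points, 0.40 at 30 nuclei). The cause was not tested.

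Of 565 values for single members under alternatives, 492 kept their direction and side of the threshold, 30 no longer passed, 10 newly passed and 33 turned. Depth limits shares of nuclei, and below about 10 CPM a member cannot be told from its level in skeletal motor neurons.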

Other observations

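I5 and I6 carry the most *Chat* of the interneuron clusters and the least of the members. Levels of glycine receptor subunits also varied between clusters. The 8 genes of the inhibitory postsynapse list summed to 1443 CPM in I5 and 1596 CPM in I6, between the 1178 CPM of visceral and the 1868 CPM of skeletal motor neurons. *Glra2*, a glycine receptor subunit, was at 224 ± 31.2 CPM in I5 and 197 ± 60.7 CPM in I6, against 4.36 ± 2.78 CPM in I2, 4.75 ± 4.14 CPM in I8 and 13.4 ± 5.44 CPM in skeletal motor neurons. *Glra3* had another order, with 314 ± 78.0 CPM in I1, 281 ± 112 CPM in I7, 171 ± 79.2 CPM in I8 and 134 ± 43.0 CPM in I5, against 14.4 ± 14.3 CPM in I2. *Glra1*, the subunit of most adult spinal glycine receptors, was at 483 ± 71.7 CPM in I8 and 475 ± 55.0 CPM in skeletal motor neurons, and at 67.3 ± 27.0 CPM in visceral motor neurons. These are levels in clusters drawn from the same nuclei and were not tested between clusters.

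Of I8 nuclei, 22.2% held a corrected count of *Slc32a1* and 98.5% one of *Slc6a5*. I8 nuclei with and without *Slc32a1* had median totals of 7484 and 7326 corrected counts, *Slc6a5* in 98.6% and 98.4% and *Chat* in 52.1% and 50.4%. *Slc32a1* in I8 ran from 0 CPM in cervical replicate 3 to 49.8 CPM in lumbar/sacral replicate 2.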
